A study of Mus musculus with 96 samples.

Results

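The genes described here are 10 neuropeptide precursors that mark subclasses of cortical interneurons: Vip, Crh, Cck, Penk, Npy, Sst, Tac1, Tac2, Cort and Pthlh. They were taken by name from a table of read counts over 55335 gene identifiers, and all 10 were found. The rule used no measured value, but the members were chosen with earlier results of these data known. The counts come from nuclear RNA of mouse visual cortex, in 96 libraries of 50 to 100 sorted nuclei each. The mice were Igf1-E1 fl/fl, Igf1-E23 fl/fl or Igf1-E123 fl/fl, lines in which enhancers of the growth factor gene Igf1 lie between sites that the recombinase Cre cuts, and every animal also carried 1 VIP flp allele beside a wild-type one. At 55 to 60 days of age the visual cortex received AAV-Syn1-fDIO-mScarlet-KASH-2a-Cre, or the control virus AAV-Syn1-fDIO-mScarlet-KASH-2a-dCre, which carries an inactive Cre. The neuronal Syn1 promoter and the Flp-dependent fDIO cassette limit both viruses to neurons with Flp, and the mScarlet-KASH tag sits on the nuclear envelope, so tagged VIP nuclei could be sorted. Darkness began 3 days after injection and lasted 10 to 12 days, and tissue was taken in the dark or after 1 h of light. Each animal group gave a set of VIP libraries and a set of total libraries of the same size. With dCre, E1 had 5 light and 3 dark replicates, and with Cre it had 4 and 5. E23 had 4 replicates throughout, and E123 had 4 apart from the dark Cre group, which had 3.

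VIP interneurons are inhibitory neurons of the superficial cortical layers that mostly contact other interneurons, above all the somatostatin class. Neuropeptides are made as precursors, cut by convertases in dense-core granules and released by strong firing. Transcription of several of their genes is driven by activity through cyclic AMP and calcium signals, which act on the cyclic AMP response element (CRE) that CREB binds. The members are vasoactive intestinal peptide (Vip), corticotropin-releasing hormone (Crh), cholecystokinin (Cck), proenkephalin (Penk), neuropeptide Y (Npy), somatostatin (Sst), its relative cortistatin (Cort), the tachykinin precursors for substance P (Tac1) and neurokinin B (Tac2), and parathyroid hormone-like hormone (Pthlh), a ligand of the receptor Pth1r.

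Promoter sequences of 8 members were found in RefSeq (GRCm38.p6), Crh and Penk having no entry, and 4 are printed, those of the members with an entry that rose after light in control VIP nuclei. Each runs 5′ to 3′ from 250 bases before the RefSeq start site to 50 after it, and capitals mark the CRE, TGACGTCA, or its half-site, TGACG, on either strand. The full CRE contains the half-site.
Vip (chr10:5638968-5639267, plus strand): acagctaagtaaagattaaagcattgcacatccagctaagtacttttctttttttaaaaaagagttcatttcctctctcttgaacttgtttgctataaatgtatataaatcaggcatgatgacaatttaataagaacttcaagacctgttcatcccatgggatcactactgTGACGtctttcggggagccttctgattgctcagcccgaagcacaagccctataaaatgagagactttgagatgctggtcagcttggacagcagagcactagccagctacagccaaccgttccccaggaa
Sst (chr16:23890795-23891094, minus strand): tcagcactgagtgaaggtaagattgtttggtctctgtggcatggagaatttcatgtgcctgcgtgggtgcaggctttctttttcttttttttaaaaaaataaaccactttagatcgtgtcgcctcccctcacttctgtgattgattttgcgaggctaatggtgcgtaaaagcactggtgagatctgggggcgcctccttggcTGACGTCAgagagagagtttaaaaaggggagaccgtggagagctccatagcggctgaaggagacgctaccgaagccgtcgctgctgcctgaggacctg
Npy (chr6:49822460-49822759, plus strand): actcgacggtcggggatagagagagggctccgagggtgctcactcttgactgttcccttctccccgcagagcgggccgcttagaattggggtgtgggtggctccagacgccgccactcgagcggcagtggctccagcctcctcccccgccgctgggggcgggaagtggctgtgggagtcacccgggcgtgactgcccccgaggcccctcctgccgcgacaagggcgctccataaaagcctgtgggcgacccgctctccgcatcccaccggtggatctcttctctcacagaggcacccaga
Pthlh (chr6:147263964-147264263, minus strand): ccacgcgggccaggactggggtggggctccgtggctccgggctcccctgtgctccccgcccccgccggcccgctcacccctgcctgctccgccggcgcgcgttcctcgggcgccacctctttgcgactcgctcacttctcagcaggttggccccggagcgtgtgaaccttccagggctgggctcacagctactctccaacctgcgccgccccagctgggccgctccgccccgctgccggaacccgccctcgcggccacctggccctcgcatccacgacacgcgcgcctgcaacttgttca
The CRE was found in 1 of the 8 promoters, that of Sst, at base -48 from the start site, against 1.79% of 32851 promoter windows of the same length. The half-site was found in 5 of 8 (Vip, Cck, Sst, Tac1 and Cort), against 20.8% of windows, and in Vip it began at base -79. Neither pattern occurs in the windows of Npy and Pthlh printed here. Vip also held TATAAA at 3 places, the nearest at base -30, a pattern in 13.6% of windows.

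VIP libraries held 1559883 to 9122515 counts and total libraries 1881731 to 8972526. Of 9 listed markers of the VIP class, 8 were tested between the fractions, by the test given below. In VIP nuclei 7 were higher, where 14.8% of all genes were higher and 20.7% lower. The other 1, Rspo1, was lower, at 1.824 against 3.648 CPM (counts scaled to library size). Among the 7, Calb2 averaged 28.79 CPM, the serotonin receptor Htr3a 378.3 and the cannabinoid receptor Cnr1 906.3, against 2.396, 5.883 and 74.17 in total nuclei. Markers listed for other interneuron classes were mixed in VIP nuclei. Lhx6, which marks the somatostatin and parvalbumin lineages, was at 0 in 31 of 48 libraries and Ndnf, a Lamp5-class marker, at 0 in 36. Others were higher than in total nuclei: Elfn1 of the somatostatin list averaged 204.9 against 10.1 CPM, Kcnc1 of the parvalbumin list 117.4 against 44.19, Reln of the Lamp5 list 162.4 against 60.25, and Frem1 and Npas1 of the Sncg list 110 against 3.748 and 71.93 against 3.527. Igf1, whose enhancers and not whose coding sequence Cre removes, had group medians of 454 to 816 CPM in dCre and 311 to 602 in Cre VIP nuclei, lower with Cre in each line and light condition, and medians of 2.42 to 20.5 in total nuclei. The Cre and dCre ranges of Igf1 did not overlap in E1 and in E123 after light, and overlapped in E23 and in E123 in the dark. Libraries differed in a length index, the mean log2 CPM of protein-coding genes spanning at least 100 kb minus that of genes under 10 kb. It was 4.96 and 4.92 in replicates 1 and 2 of the E1 dark dCre VIP group and 3.31 in replicate 3. It was 4.84 and 4.85 in replicates 1 and 2 of the E123 dark dCre VIP group and 3.92 and 3.55 in the other 2, and the means of the other 10 VIP groups ran from 2.57 to 3.82. All 10 members are short genes, spanning 1386 to 12083 bases, and calls that rest on dark dCre nuclei were refitted without the 2 E1 libraries and without all 4.

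Which peptides belong to the sorted cells was asked by comparing VIP with total nuclei. Of the 10 members, 8 were higher in VIP nuclei and 2 were lower (edgeR quasi-likelihood F test, Benjamini-Hochberg adjusted p under 0.05), while 35.5% of the 22926 genes tested differed in either direction. Vip itself averaged 5359 ± 3290 CPM (SD, n = 48) against 44.64 ± 49.2, but the VIP flp allele switches on the tag by which nuclei were sorted, so its level describes the sort. Tac2, the neurokinin B precursor, stood at 576.7 ± 437 CPM in VIP nuclei and 3.739 ± 6.39 in total nuclei, a 154-fold ratio of means. Its lowest VIP library, at 103.6 CPM, lay above its highest total library, at 29.16, and 20 of 48 total libraries had no Tac2 read. Crh, the releasing hormone of the stress axis, averaged 225.8 ± 155 against 4.409 ± 6.05 CPM, a log2 difference of 6.09 ± 0.285 (SE, adjusted p = 1.34e-30). Its lowest VIP library, at 27.15 CPM, lay just above its highest total library, at 24.99.

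Pthlh was the third member of this strongly enriched group, with 42.55 ± 23.4 CPM in VIP and 1.208 ± 1.63 in total nuclei (log2 difference 5.56 ± 0.285, adjusted p = 2.55e-30). The ranges met at their edges, with the lowest VIP library at 4.377 CPM and the highest total library at 6.266. Npy, a peptide usually tied to somatostatin and neurogliaform interneurons, was also higher in VIP nuclei, at 303.7 ± 214 against 37.92 ± 35 CPM (3.20 ± 0.21, adjusted p = 2.01e-22). Penk, the precursor of the enkephalins, averaged 139.9 ± 158 CPM in VIP and 18.67 ± 15.5 in total nuclei (2.73 ± 0.223, adjusted p = 8.80e-18). Its exons share 233 bases with the antisense transcript A830012C17Rik, and a kit that does not mark strand cannot separate them, although that transcript held 3528 counts against 37660 for Penk.

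Cck, which many excitatory neurons of the cortex also make, differed less, at 560.4 ± 412 CPM in VIP and 202.8 ± 106 in total nuclei (1.5 ± 0.142, adjusted p = 5.58e-15). Cort, the somatostatin-related peptide, was low in both fractions, 7.667 ± 9.32 against 2.494 ± 4.16 CPM, with a log2 difference of 1.82 ± 0.412 (adjusted p = 0.00016). Its call was lost (log2 1.29, adjusted p = 1) when replicates 1 and 2 of E1 dark dCre were left out, because the 1 library left in that VIP group had no Cort read.

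Sst and Tac1 went the other way. Sst, the peptide that names the somatostatin class, averaged 7.935 ± 8.95 CPM in VIP nuclei and 34.18 ± 30.7 in total nuclei, a log2 difference of -2.25 ± 0.274 (adjusted p = 5.90e-11). The fractions overlapped, since VIP libraries reached 53.96 CPM and total libraries went down to 0.6759. Tac1, the substance P precursor, had no read in 27 of 48 VIP libraries and in 7 of 48 total libraries, and averaged 1.757 ± 4.04 against 5.997 ± 9.61 CPM (adjusted p = 6.54e-05, lower). A count of 0 in a VIP library allows up to 3 counts, or 0.324 to 1.88 CPM by depth, and this covers counting error only. In pools of nuclei, fewer cells of a type and less RNA per cell cannot be told apart, which touches every level given here.

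**Figure D1:**
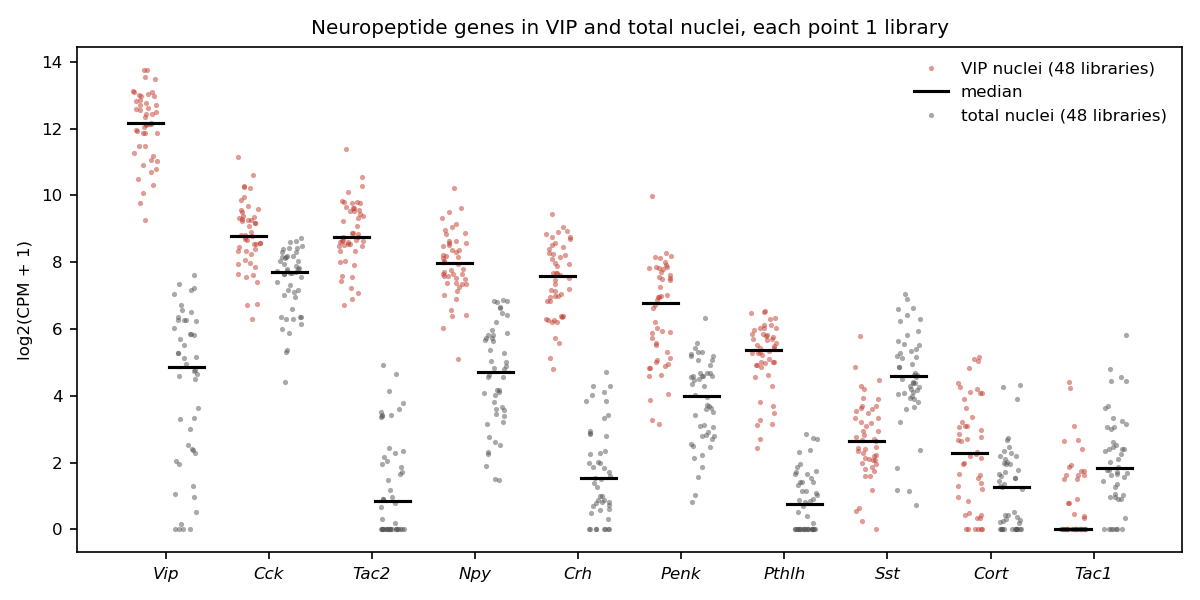
Level of each member in the 48 VIP libraries (red) and 48 total libraries (grey), as log2(CPM + 1). Each point is 1 library and the bar is the median. Vip, Tac2, Crh and Pthlh show the widest gaps, Cck overlaps, and Sst and Tac1 sit higher in total nuclei.

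Members were also ordered by CPM per kb of exon, although whether reads scale with exon length in these poly(A)-primed libraries was not tested. The level of Vip in VIP nuclei was 1580 ± 967 CPM per kb and was the highest of the members in 48 of 48 libraries. Npy (537 ± 378), Cck (429 ± 316) and Tac2 (419 ± 317) followed and did not differ beyond their spread, with Npy above Cck in 32 and Cck above Tac2 in 27 of 48 libraries. The place of Npy rests on its short exons (566 bases), since in CPM its mean of 303.7 lay under those of Tac2 (576.7) and Cck (560.4). Crh came next at 171 ± 117 CPM per kb and lay under Tac2 in 47 of 48 libraries. Penk (85.6 ± 96.7) and Pthlh (26.3 ± 14.4) were lower, and Cort (11.3 ± 13.8) and Sst (11 ± 12.4) were indistinguishable, each above the other in about as many libraries (Cort above Sst in 24 of 48). Tac1, at 0.517 ± 1.19 CPM per kb, was last. In total nuclei the order of the levels was Cck (155 ± 81.5 CPM per kb), Npy (67 ± 61.8), Sst (47.4 ± 42.6), Vip (13.1 ± 14.5) and Penk (11.4 ± 9.48), with the other 5 members under 4.

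Of the summed CPM of the 10 members, Vip made up 73.5% ± 4.77 (SD, n = 48) in VIP nuclei, with a range from 61.7% to 85%. Tac2 and Cck made up 8.14% ± 2.2 and 8.09% ± 2.95, and Npy 4.51% ± 1.67. In total nuclei Cck took the largest mean share, 57.6% ± 14.4, and Vip 12.6% ± 11.1, from 0% to 33.6%. Vip reads were absent from 4 of 48 total libraries and reached 196 CPM in another, so single pools of total nuclei varied widely for a gene of 1 scarce cell class. Lines also differed in level without a test: the median of Vip in VIP nuclei was 6102 CPM in E1 (n = 17), 7178 in E23 (n = 16) and 2154 in E123 (n = 15), and that of Crh was 234.2, 363.8 and 82.13.

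The genes whose levels ran most like those of the members were sought over the 48 VIP libraries among 9105 protein-coding genes with a mean of at least 10 CPM. Tac2 ran closest to the chemokine Cxcl14 (Pearson r = 0.938), then to Vip (0.912) and Serpine2 (0.885). Cck ran closest to Pnoc (0.896), the nociceptin precursor, then to Tac2 (0.879) and Cxcl14 (0.853). Crh ran with Vip (0.92), and Penk with Crh (0.872). Vip ran with the sodium pump subunit Atp1b1 (0.948), the granule protein Resp18 (0.935) and Atp6ap2 (0.928). These libraries share depth and length-index differences, and the members follow the index too: over the same libraries r with it was -0.907 for Vip, -0.866 for Crh, -0.828 for Npy and -0.812 for Tac2, against -0.472 for Sst and -0.386 for Tac1. In total nuclei it was -0.822 for Cck and -0.274 for Crh.

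**Figure D2:**
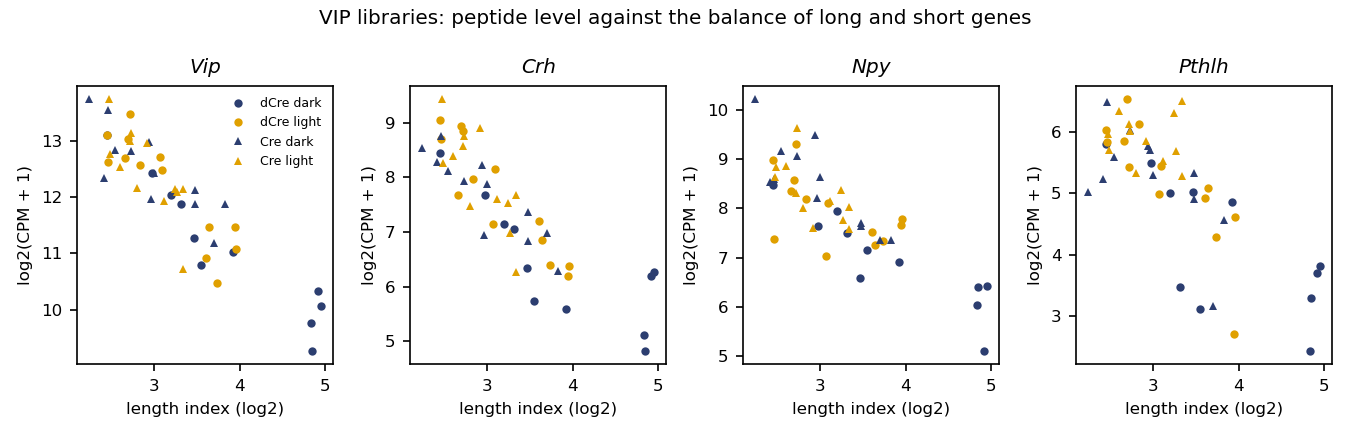
Level of Vip, Crh, Npy and Pthlh in each of the 48 VIP libraries, as log2(CPM + 1), against the length index (log2). Circles are dCre, triangles Cre, blue dark and yellow light. Levels fall as the index rises, and the dark dCre libraries at the right edge hold low values of all 4 genes.

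How the peptides respond to 1 h of light was asked first in VIP nuclei with the control virus. Averaged over the 3 lines, 5 of 10 members rose (Crh, Pthlh, Npy, Vip and Sst), none fell, and 6.27% of the 20585 genes tested passed, 3.97% upward and 2.3% downward. The median log2 change of the members was 0.99, and that of all tested genes 0.01. Crh, Npy and Pthlh kept their calls in all 24 fits that each left out 1 dCre library, while Vip lost its call in 2 and Sst in 9. Leaving out replicates 1 and 2 of the E1 dark dCre group ended all 5 calls, and so did adding the length index as a covariate. Over all genes the share called was then 0.304% and 0.685%. Leaving out all 4 libraries also ended the 5 calls, with 0.192% of genes called. Fits without the E1 pair leave 1 library in that group and lose precision, so a lost call there does not by itself show a smaller change. With the index as covariate the changes themselves were smaller for all 5. They were 0.26 ± 0.185 for Vip (adjusted p = 0.702), 0.39 ± 0.212 for Npy (0.522) and 0.98 ± 0.702 for Sst (0.696), with Crh and Pthlh given below. The index was higher in dark than in light dCre VIP libraries (group means 4.4 and 3.06 in E1, 3.02 and 2.57 in E23, 4.29 and 3.82 in E123), and its part in the change was not tested beyond these fits.

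Crh had the smallest adjusted p. Dark dCre VIP libraries held 76.29, 72.38 and 132.7 CPM in E1, 80.54, 203.7, 140 and 346.9 in E23, and 33.85, 27.15, 47.22 and 52.4 in E123. After light they held 114.2, 203.4, 250.8, 283.2 and 141.6 in E1, 414.8, 527.1, 492 and 462.5 in E23, and 145.6, 83.63, 72.52 and 82.13 in E123. Light and dark did not overlap in E23 and E123, and in E1 a single light library (114.2) lay under a dark one (132.7). Genes whose groups did not overlap made up 4.24% of all genes in E23 and 4.89% in E123. The pooled log2 change of Crh was 1.23 ± 0.24 (adjusted p = 0.0018), with 1.14, 1.28 and 1.27 in E1, E23 and E123, none of which passed alone. Without replicates 1 and 2 of E1 dark dCre it was 1.04 ± 0.306 (adjusted p = 0.118), and leaving out the E123 pair too gave 0.94 ± 0.315 (0.284). With the index as covariate it was 0.46 ± 0.193 (0.355).

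Pthlh held 13.08, 12.01 and 10.13 CPM in E1 dark dCre VIP nuclei and 33.15, 56.48, 69.13, 42.42 and 30.77 after light, with no overlap, as was so for 10.6% of all genes in that contrast. In E23 it held 31.35, 44.07, 31.2 and 54.97 in the dark and 55.9, 64.18, 92.05 and 42.11 after light, and in E123 4.377, 8.783, 27.85 and 7.675 against 29.29, 18.58, 5.548 and 23.47, with overlap in both. Its pooled change was 1.14 ± 0.276 (adjusted p = 0.0104). The E1 change alone was 2.06 ± 0.519 (adjusted p = 0.0171), where 4.18% of genes passed, 2.68% upward and 1.5% downward. It was the only member call for light in a single line. Few genes of any kind passed in the other single lines: 0.0486% in E23 with dCre (0.034% upward, 0.0146% downward), 0.00972% in E123 with dCre (all upward), 0.0146% in both E1 and E23 with Cre (all upward) and 0.00486% in E123 with Cre. Without dark replicate 1 it was 2.11 ± 0.617 (adjusted p = 0.1155), without dark replicate 2 it was 2.03 ± 0.611 (0.0883), and without both 2.19 ± 0.843 (0.664), so the size stayed while its error grew. Without both, the pooled change of Pthlh was 1.2 ± 0.358 (adjusted p = 0.13), without all 4 libraries 1.00 ± 0.353 (0.315), and with the index as covariate 0.61 ± 0.321 (0.496).

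Npy ranged from 33.19 to 354.4 CPM with a median of 119.5 in the 11 dark dCre VIP libraries, and from 129.8 to 636.1 with a median of 220 in the 13 light ones. The groups separated fully in E123 only (65.07, 83.44, 119.5 and 140.5 against 183.7, 160.4, 200.9 and 220). Its pooled change was 1.03 ± 0.259 (adjusted p = 0.014), without the 2 E1 libraries 0.72 ± 0.292 (0.302), and without all 4 libraries 0.62 ± 0.301 (0.54). Vip ranged from 610.6 to 8841 CPM (median 2079) in the dark and from 1430 to 11380 (median 6102) after light, and the ranges overlapped in each line. Its pooled change was 0.95 ± 0.261 (adjusted p = 0.0242). Leaving out E1 dark dCre replicate 1 alone gave 0.85 (adjusted p = 0.0723), replicate 2 alone 0.87 (0.066), both together 0.64 ± 0.31 (0.424), and the E123 pair too 0.47 ± 0.292 (0.651).

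Sst, which held the CRE among the 8 promoters searched, was low in VIP nuclei, from 0 to 5.546 CPM (median 3.73) in the dark and from 1.257 to 53.96 (median 9.168) after light. Of the 13 light libraries 8 lay above the whole dark range, and the other 5 did not exceed 4.126 CPM. The change was 1.88 ± 0.562 (adjusted p = 0.0346), and it lost its call in 9 of 24 fits that each left out 1 dCre library, with adjusted p up to 0.116. Without E123 light replicate 2, the library at 53.96 CPM, it was 1.44 (adjusted p = 0.116). Without the 2 E1 dark libraries it was 1.71 ± 0.748 (adjusted p = 0.354), and without all 4 it was 1.58 ± 0.73 (0.509).

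Among the members that did not pass, Cort had the largest change, 2.12 ± 0.737 (adjusted p = 0.0689), and separated fully in E23, with 3.617, 2.129, 0.3467 and 6.95 CPM in the dark and 19.92, 27.81, 9.399 and 16.12 after light. DESeq2, which called 7 members and 12.6% of the 16190 genes it tested here, called Cort as well, with a log2 change of 2.15 (adjusted p = 0.0224). Cck changed by 0.89 ± 0.307 (adjusted p = 0.0715, and 0.0452 in DESeq2) and also separated in E23, where it held 383.2, 582.7, 229.5 and 582.5 CPM in the dark and 667.6, 1249, 990 and 1193 after light. Penk stood at 0.95 ± 0.427 (adjusted p = 0.177) and Tac2 at 0.34 ± 0.329 (0.608), with a 95% interval for Tac2 from -0.305 to 0.985. Tac1 had no read in 7 of 11 dark and 6 of 13 light libraries, too few reads for a change to be read.

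**Figure D3:**
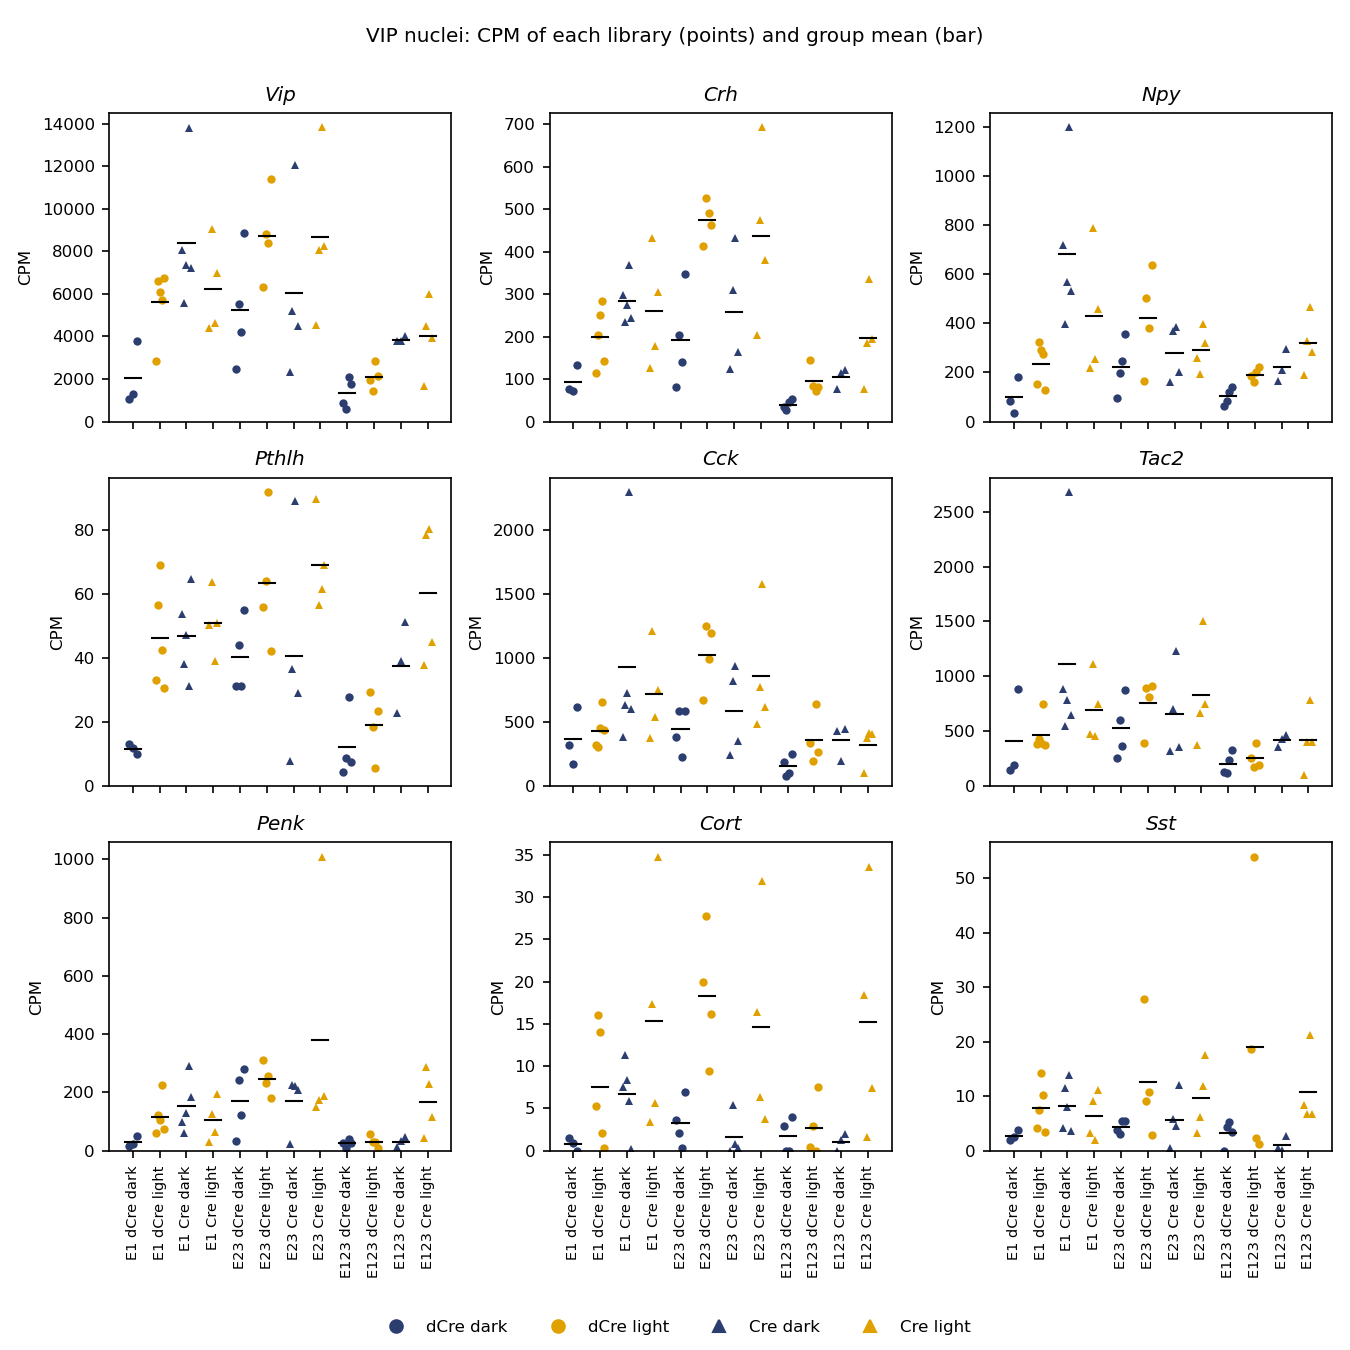
CPM of 9 members in every VIP library (points), by line, virus and light, with the group mean as a bar. Tac1 is left out because 27 of 48 libraries had no read. Circles are dCre, triangles Cre, blue dark and yellow light. E1 and E123 dark dCre libraries are low for Vip, Crh, Npy and Pthlh, and the medians of Vip, Crh and Penk over all libraries of a line are lowest in E123.

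With the Cre virus, none of the 10 members passed the test for light in edgeR, where 0.35% of genes passed (0.267% upward and 0.0826% downward). At an unadjusted p under 0.05 there were 4 members, beside 9.31% of all genes, and DESeq2 called 1, Cort, beside 0.937% of genes. Cort held 0 to 11.34 CPM (median 1.629) in the 12 dark and 1.623 to 34.77 (median 11.91) in the 12 light Cre libraries, a log2 change of 2.63 ± 0.727 (adjusted p = 0.0963, and 0.0139 in DESeq2). Its direction was upward in each of the 3 lines, by 1.19, 3.02 and 3.67 in E1, E23 and E123. With the index as covariate the change of Cort was 2.55 (adjusted p = 0.0649). The other 3 were Sst (1.19 ± 0.549, adjusted p = 0.481), Penk (1.00 ± 0.421, 0.415) and Crh (0.51 ± 0.233, 0.464). Vip changed by 0.05 ± 0.256, with a 95% interval from -0.45 to 0.55, and Npy by -0.03 ± 0.252, from -0.53 to 0.46.

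The difference between the 2 light responses was itself tested, and none of the 10 members passed (0.00486% of genes, or 1 gene, did, DESeq2 called 0 members, and 4 members, beside 9.28% of all genes, had an unadjusted p under 0.05). Those 4 had smaller responses with Cre: Npy by -1.06 ± 0.359 (adjusted p = 0.344), Vip by -0.90 ± 0.363 (0.448), Cck by -0.88 ± 0.427 (0.534) and Crh by -0.72 ± 0.33 (0.505). A different light response with and without the enhancers was therefore not shown for any member.

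Whether the Cre virus changed the peptides was asked in each light condition. In the dark, Vip, Crh, Cck, Npy and Pthlh were higher with Cre than with dCre (5 of 10 members, with 6.11% of genes called and 3.88% upward). This comparison uses the same dark dCre libraries as the light response above, so both results share a control group. Vip held 2339 to 13810 CPM (median 5369) in the 12 dark Cre libraries, against the dCre range given above, a log2 difference of 1.28 ± 0.269 (adjusted p = 0.00741). The corresponding differences were 1.43 ± 0.266 for Npy (0.00355), 1.16 ± 0.244 for Crh (0.00724), 1.27 ± 0.282 for Pthlh (0.00827) and 1.00 ± 0.314 for Cck (0.0472). Cck was not called with sex as covariate (1.00 ± 0.321, adjusted p = 0.0552). It also lost its call in 14 of 23 fits that each left out 1 dark library, with adjusted p up to 0.126. Vip, Crh, Npy and Pthlh kept theirs in all 23. Tac2 differed by 0.94 ± 0.34 (adjusted p = 0.0871) and Penk by 0.91 ± 0.435 (0.21).

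Line by line, the dark difference was largest in E1, where Vip, Crh, Npy and Pthlh passed (9.18% of genes did, 5.09% higher and 4.09% lower). E1 dark Cre VIP libraries held 8067, 5561, 7355, 13810 and 7223 CPM of Vip against 1071, 1283 and 3778 with dCre, a log2 difference of 2.10 ± 0.496 (adjusted p = 0.00769). Npy there held 719.2, 395.5, 569.7, 1197 and 532.5 against 84.95, 33.19 and 179.4 CPM (2.84 ± 0.509, adjusted p = 0.00116). Neither gene's groups overlapped, a state shared by 14.2% of all genes in that contrast. In E23, whose dark dCre group mean index was 3.02, the same differences were 0.19 for Vip, 0.41 for Crh, 0.31 for Npy and 0.01 for Pthlh, and none of the 20585 genes passed in edgeR (1251 had an unadjusted p under 0.05, no member among them). In E123 they were 1.54, 1.40, 1.14 and 1.69. No member passed there, nor did any of the 20585 genes in edgeR (1796 had an unadjusted p under 0.05, 5 members among them), although the Cre and dCre groups of Vip, Crh, Npy and Tac2 did not overlap, as was so for 9.11% of all genes. Without replicates 1 and 2 of E1 dark dCre, no member and none of the 24049 genes tested passed in the pooled dark comparison in edgeR, and no member passed in E1. The pooled difference was then 0.97 ± 0.324 for Vip (adjusted p = 0.285), 1.14 ± 0.308 for Npy (0.223), 0.98 ± 0.308 for Crh (0.268), 0.74 ± 0.384 for Cck (0.55) and 1.31 ± 0.366 for Pthlh (0.232), the last as large as with all libraries. Without all 4 libraries these were 0.79, 1.02, 0.87, 0.67 and 1.12, again with no call. With the index as covariate the pooled difference was 0.39 ± 0.197 for Vip (adjusted p = 0.905), 0.61 ± 0.227 for Npy (0.7) and 0.62 ± 0.349 for Pthlh (0.948). For Crh it was then 0.23 ± 0.204 and for Cck 0.11 ± 0.334, also without a call. As for light, the fits without the E1 pair leave 1 library in E1 dark dCre and lose precision.

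After light, no member differed between Cre and dCre in edgeR (0.00486% of genes did), nor in DESeq2, and 2 members, beside 5.6% of all genes, had an unadjusted p under 0.05. These were Penk, at 0.96 ± 0.405 (adjusted p = 0.78), and Pthlh, at 0.64 ± 0.259 (0.736). The interval for Vip was -0.11 to 0.86 and that for Npy -0.11 to 0.85 on the log2 scale. In E123, Pthlh held 37.89, 78.39, 80.23 and 44.93 CPM with Cre and 29.29, 18.58, 5.548 and 23.47 with dCre, without overlap (6.15% of genes separated there), but the difference of 1.64 ± 0.469 had an adjusted p of 0.557.

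**Figure D4:**
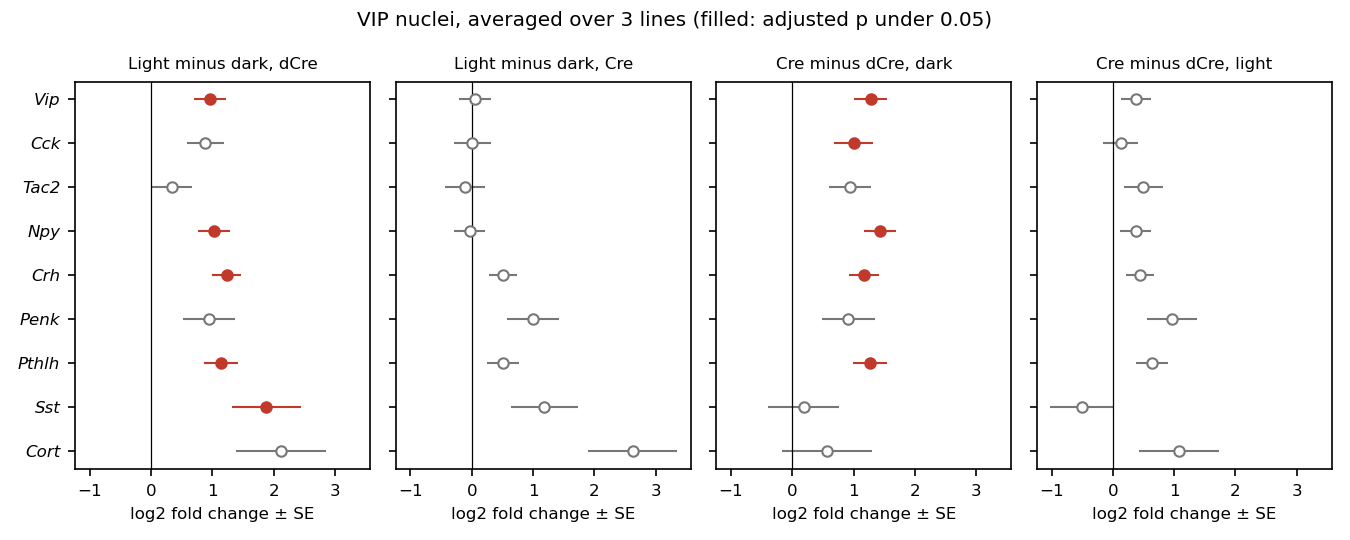
Log2 fold changes (± SE) of 9 members in VIP nuclei, averaged over 3 lines, for light with dCre, light with Cre, Cre in the dark and Cre after light. Filled points passed at an adjusted p under 0.05. The filled points, 5 in the first and 5 in the third panel, fall in the comparisons that use the dark dCre libraries.

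Ratios to Vip within a library take out differences that Vip shares. Across dCre libraries, Crh stood at 4.01% ± 1.34 of the Vip level in the dark (SD, n = 11) and 4.65% ± 1.63 after light (n = 13), and Npy at 6.13% ± 3.1 and 6.02% ± 2.78. Pthlh stood at 0.87% ± 0.4 and 0.887% ± 0.384. Pooled over lines, each of these differences is smaller than the spread between libraries. The lines did not move alike for Crh: its ratio was 3.55% ± 0.315 in the dark and 5.62% ± 1.08 after light in E23, without overlap, 3.4% ± 0.967 and 4.93% ± 2.19 in E123, and 5.43% ± 1.82 and 3.65% ± 1.09 in E1. Tac2 went from 14.3% ± 4.59 to 9.78% ± 3.11 and Cck from 13.8% ± 7.36 to 11.8% ± 4.61, with overlap in both. Across Cre libraries Crh stood at 3.7% ± 1.09 and 4.59% ± 0.797, and Pthlh at 0.706% ± 0.28 and 1.16% ± 0.567 (n = 12 each).

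In total nuclei VIP cells are few. Averaged over lines and viruses, Cck and Crh rose after light (2 of 10 members, with 7.78% of the 21213 genes tested called and 4.33% upward). Cck ranged from 20.42 to 281.9 CPM (median 81.16) in dark dCre, from 95.77 to 418.8 (210.9) in light dCre, from 38.64 to 343.5 (208.9) in dark Cre and from 69.9 to 360.4 (249.3) in light Cre libraries. The change was 0.84 ± 0.169 (adjusted p = 0.000781). It kept its call without the 2 E1 libraries (0.70 ± 0.186, adjusted p = 0.0233), without the E123 pair too (0.62 ± 0.181, 0.0487) and with the index as covariate (0.48 ± 0.119, 0.00669). It was largest in E123, where light and dark dCre libraries did not overlap (187.7, 95.77, 136 and 158.9 against 20.42, 40.11, 80.93 and 63.21 CPM), while 5.88% of genes separated there. In E1 with Cre the change was in the other direction, -0.51, without a call.

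Crh was scarce in total nuclei. Its medians were 1.619 CPM in dark and 4.057 in light dCre libraries, and 0.7378 and 3.057 in dark and light Cre libraries, and light libraries reached 24.99 where dark ones reached 9.089. The ranges overlapped. The change was 2.37 ± 0.556 (adjusted p = 0.00386), upward in each of the 3 lines with either virus, by 0.62 to 4.36. It was 2.83 ± 0.807 (adjusted p = 0.0334) without the 2 E1 libraries, and 1.93 ± 0.659 (0.0792) with the index as covariate. Of the other members, Cort (1.53 ± 0.65, adjusted p = 0.148), Tac1 (1.31 ± 0.547, 0.139) and Penk (0.70 ± 0.283, 0.125) did not pass, and Npy and Sst changed by 0.23 ± 0.337 and 0.39 ± 0.383. Vip in total nuclei changed by 0.86 ± 0.634 (adjusted p = 0.48).

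Cre against dCre in total nuclei called no member in edgeR (0.0283% of genes passed), none in DESeq2, and none had an unadjusted p under 0.05. Whether light acted differently in the 2 fractions was tested on all 96 libraries. No member passed in edgeR or DESeq2 (0.0872% of genes passed in edgeR), and 2, beside 6.06% of all genes, had an unadjusted p under 0.05. Crh changed less in VIP than in total nuclei, by -1.44 ± 0.517 (adjusted p = 0.452), and Sst more, by 1.12 ± 0.528 (0.749). For Vip the interval of the difference was -1.61 to 0.90.

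**Figure D5:**
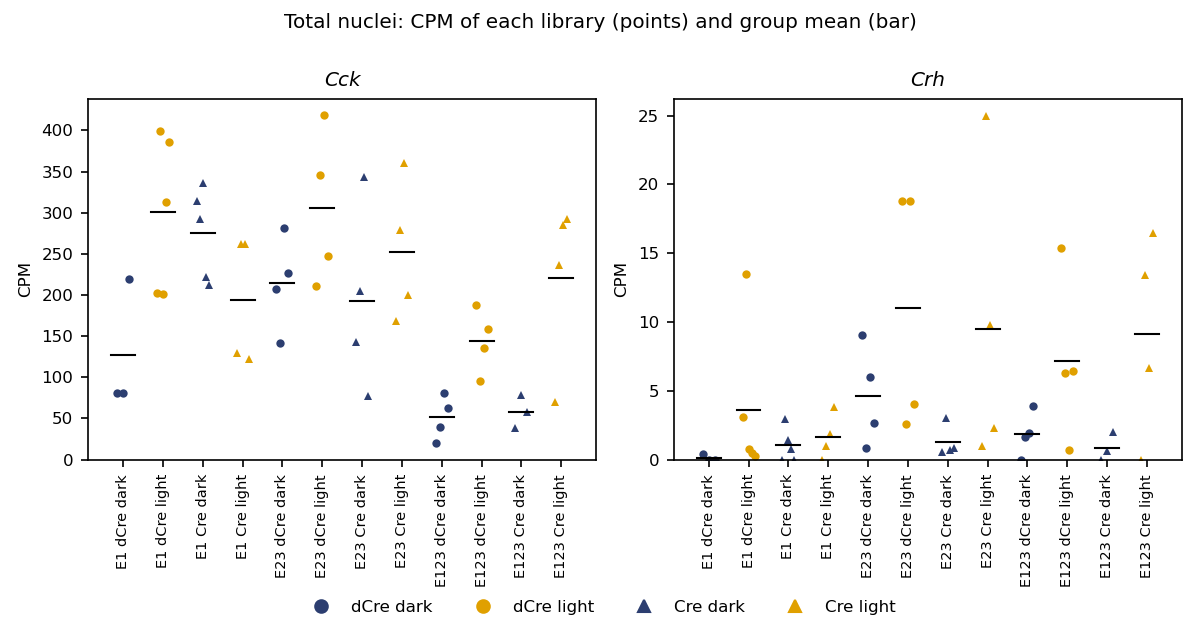
CPM of Cck and Crh, the members that passed the test for light, in every total library (points), with the group mean as a bar, by line, virus and light. Circles are dCre, triangles Cre, blue dark and yellow light. Cck is lowest in E123 in the dark, and most Crh values lie under 5 CPM.

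Genes around the peptides were taken from lists, beginning with the enzymes and granule proteins that process them. In dCre VIP nuclei after light, 9 of 16 rose and 1 fell, beside 3.97% and 2.3% of all genes. Their median log2 change was 0.71 against 0.01 for all genes. Those that rose included the convertase Pcsk1 (1.25 ± 0.196, adjusted p = 9.75e-05), the granin Scg2 (1.63 ± 0.364, 0.00787) and carboxypeptidase E, Cpe (0.88 ± 0.204, 0.00799). With Cre, none of the 16 passed in edgeR. In total nuclei 9 of 16 rose and 2 fell, beside 4.33% and 3.46% of all genes. Among the former were Pcsk1 (2.03 ± 0.149, adjusted p = 1.07e-14) and the granule peptide precursor Vgf (1.23 ± 0.19, 8.42e-06). Pcsk1 responded less in VIP than in total nuclei, by a log2 difference of -1.12 ± 0.2 (adjusted p = 0.00251), and was the 1 of the 16 to pass for that difference. The Pcsk1 response in VIP nuclei was still called without the 2 E1 libraries (0.96 ± 0.229, adjusted p = 0.0389) and with the index as covariate (0.90 ± 0.196, 0.0111), but not without all 4 (0.90 ± 0.239, 0.114). Scg2 (1.24 ± 0.36) and Cpe (0.89 ± 0.262) each had an adjusted p of 0.118 without the 2 E1 libraries. In total nuclei Pcsk1, Vgf, Scg2 and Cpe kept their calls under all 3 settings.

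Of 22 receptors of the member peptides, 20 were tested. Between the fractions 6 were higher and 8 lower in VIP nuclei, where 14.8% of all genes were higher and 20.7% lower. The higher ones included the neuropeptide Y receptors Npy1r (1.88 ± 0.127, adjusted p = 3.31e-23) and Npy2r (3.05 ± 0.258, 3.70e-17) and the PACAP receptor Adcyap1r1 (1.33 ± 0.0832, 1.08e-25). The opioid receptor Oprm1 was lower (-1.53 ± 0.127, adjusted p = 1.17e-18). After light the somatostatin receptor Sstr2 rose in dCre VIP nuclei (2.09 ± 0.556, adjusted p = 0.0192) and Adcyap1r1 fell there (-0.56 ± 0.146, 0.0161). Each was 1 of 20, beside 3.97% of all genes upward and 2.3% downward. In total nuclei Sstr2 (0.93 ± 0.286, adjusted p = 0.0343) and the cholecystokinin receptor Cckbr (0.47 ± 0.128, 0.014) rose, 2 of 20 beside 4.33% of all genes. In the dark Npy5r (1.32 ± 0.363, adjusted p = 0.0232) and Npy1r (0.76 ± 0.237, 0.0447) were higher with Cre in VIP nuclei, 2 of 20 beside 3.88% of all genes. Counts this small are not read as a response of the receptors as a set. None of the receptor calls after light or in the dark was kept without the 2 E1 libraries, where Sstr2 in VIP nuclei was 2.03 ± 0.724 (adjusted p = 0.229), Adcyap1r1 -0.63 ± 0.172 (0.0832), Npy5r 1.11 ± 0.429 (0.365) and Npy1r 0.50 ± 0.258 (0.547), and in total nuclei Sstr2 was 0.72 ± 0.292 (0.202) and Cckbr 0.42 ± 0.142 (0.0909).

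Of 17 other neuropeptide precursors, 10 were tested in VIP nuclei and 11 in total nuclei. Between the fractions 2 of 11 were higher and 5 lower in VIP nuclei, beside 14.8% and 20.7% of all genes. Pnoc was higher in VIP than in total nuclei (4.9 ± 0.254, adjusted p = 1.45e-28), as was the endothelin Edn3 (6.83 ± 0.578, 1.42e-16), while gastrin-releasing peptide, Grp (-3.33 ± 0.422, 1.42e-10), and the PACAP precursor Adcyap1 (-2.37 ± 0.371, 7.69e-08) were lower. After light 3.97% of all genes rose in dCre VIP nuclei and 4.33% in total nuclei, so 1 call is not read as a response of the list. Pnoc was the 1 of 10 that rose in dCre VIP nuclei (0.83 ± 0.22, adjusted p = 0.018), and Adcyap1 the 1 of 11 that rose in total nuclei (1.34 ± 0.317, 0.00415). Without the 2 E1 libraries they were 0.84 ± 0.278 (adjusted p = 0.18) and 1.14 ± 0.35 (0.0552).

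Some markers of other cell classes also passed in the dCre light comparison of VIP nuclei, where 6.27% of all genes passed, 3.97% upward and 2.3% downward. A single call in a short list is not read as a shift of that list. None of the tested microglia, endothelial and mural, Lamp5 and Sncg markers passed. The summed level of 6 astrocyte markers ran from 15.37 to 150.7 CPM (median 55.6) in the dark and from 44.38 to 743.4 (137.7) after light, and 2 of 6 passed. The sum of 7 oligodendrocyte lineage markers had medians of 96.41 and 212.4, and 1 of 7 passed. Of 10 excitatory markers 1 passed, Slc17a7 (1.28 ± 0.359, adjusted p = 0.0253), while their sum had medians of 481.3 and 399.7. The GABAergic markers Gad1 (0.85 ± 0.16, adjusted p = 0.00105) and Gad2 (0.72 ± 0.136, 0.00117) rose as well, and 1 of 8 tested VIP markers did, while the VIP marker sum had medians of 1409 and 1369. For the classes that make the low members, Pvalb rose (2.49 ± 0.753, adjusted p = 0.0365) from a low level, with a mean of 3.02 CPM over all VIP libraries, and Lhx6 had a mean of 1.04 CPM there. Chodl, a marker of a somatostatin subclass, passed as well (5.10 ± 1.52, adjusted p = 0.0403), although 42 of 48 VIP libraries had no Chodl read. Without the 2 E1 libraries Gad1 was the 1 marker named here to keep its call (0.90 ± 0.204, adjusted p = 0.0263), and without all 4 none did. The part of these markers in the change of the members was not tested. In the separate comparison for light with Cre, Gad2 passed (0.59 ± 0.135, adjusted p = 0.0226), 1 of 4 GABAergic markers beside 0.35% of all genes. That comparison uses no dark dCre library, and the call was kept with the index as covariate.

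Some markers also differed with Cre in the dark in VIP nuclei, where 6.11% of all genes passed, 3.88% higher and 2.23% lower. Outside the GABAergic list each cell-class list had at most 1 call, which is not read as a shift of the list. None of the tested somatostatin, Lamp5 and Sncg markers passed. The GABAergic markers Gad1 (0.80 ± 0.163, adjusted p = 0.00633) and Gad2 (0.44 ± 0.138, 0.0445) were higher with Cre, and the summed level of the GABAergic list ran from 411 to 1474 CPM (median 763.1) with dCre and from 711.1 to 1928 (1213) with Cre. Of 6 astrocyte markers 1 passed, Aldoc (1.88 ± 0.54, adjusted p = 0.0328), and their sum ran from 15.37 to 150.7 (median 55.6) and from 33.21 to 324.7 (103.4). None of 7 oligodendrocyte lineage markers passed, with a median log2 difference of 1.6 and sums with medians of 96.41 and 185.1. Of 5 endothelial and mural markers tested Rgs5 passed (4.13 ± 1.11, adjusted p = 0.0204), while their sums had medians of 7.003 and 7.263 and reached 441 in a Cre library. C1qa of 6 microglia markers (2.83 ± 0.844, adjusted p = 0.035) and Pvalb of 5 parvalbumin markers (2.67 ± 0.767, 0.029) were higher too, and Cux2 of 10 excitatory markers was lower (-1.17 ± 0.317, 0.0218). None of 8 tested VIP markers passed. None of the 15 list genes named by rule in this comparison kept its call without the 2 E1 libraries, without all 4, or with the index as covariate, and their part in the members' difference was not tested.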

How the data were processed

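Nuclear RNA of sorted VIP and total nuclei was measured by poly(A)-primed RNA-seq without molecular identifiers. The authors deposited raw read counts per gene identifier; per the submitters' processing notes, cutadapt 1.18, STAR 2.5.3a, HOMER 4.9.1 and mm10 were used, and the annotation release and strand setting are not given in the sources used here. Of 55335 identifiers, 55154 were matched to names and coordinates of GENCODE vM21, and the other 181 held 0.0225% of counts. Groups came from the sample labels, and whether replicates are separate animals is not stated, so p-values measure the spread between these libraries.

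Counts were fitted with edgeR 4.0.16 (quasi-likelihood F test, TMM scaling, filterByExpr, robust, R 4.3.3, limma 3.58.1), 1 mean per group, in VIP libraries (20585 genes), total libraries (21213) and all 96 together (22926), with Benjamini-Hochberg adjustment over all genes and a threshold of 0.05. SEs were derived from each log2 change and its F value (the change over the root of F). CPM use the 96-library scaling. The pooled contrasts weight the 3 lines equally. Alternatives were DESeq2 1.42.0, total-count scaling, no low-count filter, the length index or sex as covariate, a replicate block, and leaving out libraries. The named genes are the 10 members, up to 4 genes per list by smallest adjusted p and 3 genes most like each member. Members and lists were chosen with earlier results of these data known. The 148 pairs of libraries within groups differed by more than sampling noise, with a chi-square per degree of freedom of at least 8.45. Floors are 3 counts.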

Additional observations from a re-analysis of the deposited data

Results flagged for a closer look

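Within each group of 4 or 5 libraries, a value was listed when its gap to the nearest other library exceeded Dixon's critical value on the log2(CPM + 1) scale. Of 199 sets checked, each of 1 member in 1 group, 22 were listed (11.1%). Chance lists about 1 in 20 where values vary continuously. A set with reads in a single library is always listed, whatever the level there, and such sets are among those given below. The share of 11.1% can therefore not be compared with the chance rate, and no excess over chance is read from it.

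In VIP nuclei, Vip stood at 2827 CPM in E1 dCre light replicate 1, with the other 4 from 5736 to 6744. Cck stood at 105.9 in E123 Cre light replicate 1 (others 371.5 to 413.1). Penk was high at 1009 in E23 Cre light replicate 3 (others 150.6 to 188.5) and low at 23.78 in E23 Cre dark replicate 1 (others 209.7 to 226.8). Tac2 was high at 745.9 in E1 dCre light replicate 4 (others 373.5 to 428.8) and low at 397.1 in E23 dCre light replicate 1 (others 810.3 to 913.7). Cort was low at 0.2594 in E1 Cre dark replicate 5 (others 5.854 to 11.34). Tac1 was detected in a single library of 5 VIP groups, at 0.717 in E1 Cre light replicate 2, 2.107 in E1 Cre dark replicate 4, 2.382 in E123 dCre dark replicate 4, 7.539 in E23 Cre light replicate 4 and 5.323 in E23 Cre dark replicate 3.

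In total nuclei, Vip stood at 103.4 CPM in E123 dCre light replicate 1 (others 0 to 0.9668) and at 0 in E23 Cre light replicate 1 (others 80.97 to 93.78). Cck was low at 69.9 in E123 Cre light replicate 1 (others 236.7 to 292.1), the replicate number that was also low in VIP nuclei. Tac1 was high at 26.99 in E1 dCre light replicate 3 (others 4.332 to 7.352). Tac2 was high at 16.82 in E1 dCre light replicate 2 (others 0 to 0.7279), and was at 0 in E123 Cre light replicate 3 (others 9.591 to 11.17). Tac2 at 0.1528 in E1 Cre light replicate 3, Cort at 1.909 in E1 Cre light replicate 4, and Pthlh at 0.7504 in E1 Cre dark replicate 4 and 0.8315 in E23 Cre light replicate 3 were the detections in groups otherwise at 0.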

How the results depend on the processing

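Counts of called members in the pooled VIP contrasts fell to 0 without some dark dCre libraries, and single-line counts rose most without the low-count filter. Against 5 for light in dCre VIP nuclei and 5 for Cre in the dark, the length index as covariate gave 0 and 0, and leaving out E1, or E1 and E123, dark dCre replicates 1 and 2 gave 0 in each. Those settings took the 5 single-line calls in VIP nuclei to 0, 0 and 0. Leaving out 1 library gave 3 to 7 for light with dCre, 4 to 6 for Cre in the dark, 0 to 1 for light with Cre and for the difference of light responses, 2 to 3 for light in total nuclei, 1 to 11 for single lines in VIP nuclei and 0 to 3 in total nuclei. Without the low-count filter the counts were 8 for light with dCre (beside 4.73% of all genes), 2 for light with Cre (0.637%) and 3 for their difference (0.401%). They were 1 for Cre after light (0.0918%), 5 for light in total nuclei (5.16%), and 22 and 21 for single lines (VIP and total). Single-line counts add up calls over all members and all single-line contrasts. Under the alternatives, the share of all genes is not given for single lines or for single left-out libraries. DESeq2 gave 1 for light with Cre, and 9 and 6 for single lines. The index took light in total nuclei from 2 to 1 and single lines in total nuclei from 0 to 1, sex took the latter to 1, and leaving out 4 libraries to 2. Crh in E1 dark VIP nuclei, 1.68 with Cre against dCre, was -0.16 with the index as covariate, and the granule gene Cadps in the pooled dark comparison went from -0.55 to 0.14. The cause was not tested. The comparison of VIP with total nuclei kept 10 calls, or 9 (without Cort) in both leave-out settings.

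Whether replicate numbers pair the libraries is not stated. Same-numbered VIP and total libraries had the same sex label in 48 of 48 cases, and their deviations correlated at -0.0343 to 0.314 (median 0.0543 against -0.0115 for other numbers, over 0.1 in 12 of 48). In total nuclei too the length index was highest in replicates 1 and 2 of E1 dark dCre (4.34 and 4.43, against 2.98) and of E123 dark dCre (4.76 and 4.38, against 3.6 and 3.2). Shared animals are therefore possible. The main fits treated every library as independent, and only the replicate block of the 96-library fit took the numbers as animals. A replicate block gave 6 calls for Cre in the dark, adding Tac2 (1.08, adjusted p = 0.0122), and 9 and 4 for single lines in VIP and total nuclei. Total-count scaling changed no member's call in the pooled contrasts and shifted members by a median of 0.13 (Cre, dark) and -0.11 (VIP against total). Over all genes it moved higher against lower calls from 817 and 473 to 942 and 230 for light with dCre, from 798 and 459 to 1077 and 206 for Cre in the dark, and from 3391 and 4749 to 2536 and 6313 for VIP against total. Called genes for light with dCre numbered 1290, 2044 in DESeq2, 141 with the index, and 73 and 46 in the leave-out settings. For Cre in the dark they numbered 1257, 2064, 0, 0 and 0. For the difference of light responses and for Cre after light they numbered 1 and 1, 23 and 18 in DESeq2, 144 and 33 unfiltered, and 0 and 2 with the index; the difference also called 0 with sex, the block, total-count scaling and both leave-outs. Cre in total nuclei called 6, 42 in DESeq2, 284 unfiltered, 0 with the index, and 1 and 0 in the leave-out settings. The light difference of the fractions called 20, 89 in DESeq2, 35 with total-count scaling, 52 with the index, and 2 in each leave-out setting. For light with Cre they numbered 72, 185 in DESeq2, 229 unfiltered and 180 with the index. In total nuclei, light called 1651, 1103 with the index, and 822 and 757 in the leave-out settings. Refitting the genes named from lists without these libraries or with the index was chosen after seeing the data. Of 16 for light with dCre, 2, 0 and 3 stayed called without the E1 pair, without all 4 and with the index, of 15 for Cre in the dark 0, 0 and 0, and of 12 for light in total nuclei 6, 7 and 6. Depth limits Tac1, Cort, Sst in VIP nuclei and Crh, Tac2 and Pthlh in total nuclei, where counts of 0 occurred.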
